A study of Mus musculus with 8 samples.

Results

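Gpr83 and Izumo1r are neighbouring genes of mouse chromosome 9, both known as markers of regulatory T (Treg) cells. They were taken by name from a table of 24421 genes, and make up 2 of those rows. They were chosen by name with their raw counts in the 8 libraries already known, so their differences between genotypes are given as a description, with no test. The libraries hold poly(A) RNA of follicular regulatory T (TFR) cells, T cells that express Foxp3 and enter the follicles of B cells, sorted from mouse spleen as Foxp3+YFP+ CXCR5+ PD1+ cells. The groups were 4 libraries of the genotype labelled Blimp1-flox (Blimp1) Foxp3-cre, called Blimp1-flox here, and 4 of the genotype labelled Wildtype (WT). Both genotypes were challenged orally 2 times, with peanut plus cholera toxin, and spleens were taken 36 days later. Foxp3-cre is made in cells that express Foxp3, and deletion in other cells was not measured here. The sources used here do not say whether WT mice carried Foxp3-cre, how many alleles were floxed, how old the mice were or whether each library came from a separate mouse. The p-values below thus reflect only how far these libraries vary, and some of that variation may be technical.

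Gpr83 encodes a G protein-coupled receptor of the brain and of T cells, and its transcript is part of the set that Foxp3-expressing cells raise over other CD4 T cells. The neuropeptide PEN, cut from the precursor proSAAS, has been described as one of its ligands. Izumo1r encodes folate receptor 4, also called Juno, a lipid-anchored surface protein that binds folate poorly. On the egg it is the partner of sperm IZUMO1. On T cells it marks Treg cells, and together with the ectonucleotidase CD73 it marks anergic CD4 cells. Blimp1, encoded by Prdm1, is a transcriptional repressor of effector lymphocytes.

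In the gene model that was counted, Gpr83 spans chr9:14860254-14869499 in mm10 on the plus strand, with 4 exons and 2252 exon bases. Izumo1r spans chr9:14885814-14903951 on the minus strand, with 6 exons and 1841 exon bases. The genes face each other tail to tail: their 3' ends lie 16314 bases apart and their start sites 43697 bases apart. GENCODE M21, on the same build, places 0 genes between them. Their exons overlap 0 other genes of the table. The protein-coding GENCODE transcripts of Gpr83 hold 1334 exon bases, and those of Izumo1r 481, that were not counted. Counted coding sequence was 1269 bases for Gpr83 and 886 bases for Izumo1r, the rest being untranslated exon.

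Sequence upstream of both genes is shown because the members lie side by side but differ here in composition. Both were matched in RefSeq (GRCm38.p6), with 250 bases before each RefSeq start. The RefSeq start of Gpr83 lies 44 bases upstream of the counted start, and that of Izumo1r 184 bases downstream of the counted start, inside its first exon. For Izumo1r only the 66 bases upstream of the counted exon are therefore printed. Sequences run 5' to 3' on the strand of the gene. Gpr83 is at chr9:14859960-14860209 and Izumo1r at chr9:14903952-14904017. Capitals mark the motif matches described after the sequences, on either strand.
Gpr83: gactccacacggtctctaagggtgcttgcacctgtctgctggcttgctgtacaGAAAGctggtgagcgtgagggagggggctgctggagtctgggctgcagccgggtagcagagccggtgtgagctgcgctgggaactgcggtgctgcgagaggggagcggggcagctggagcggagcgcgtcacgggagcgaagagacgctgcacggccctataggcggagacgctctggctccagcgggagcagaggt
Izumo1r: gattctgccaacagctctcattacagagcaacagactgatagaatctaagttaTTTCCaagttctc
Over the whole 250 bases before the RefSeq start, Gpr83 has 66.8% G and C and 18 CG pairs. Izumo1r has 50.0% and 2 CG pairs, of which window 184 bases are counted exon. Over 27025 RefSeq promoters the medians were 52.0% and 6 CG pairs. Motifs were looked for on both strands in 300 bases, from 250 before to 50 after the RefSeq start, from which positions are counted. GAAAG, the core of sites described for Blimp1, had 1 match in Gpr83, 197 bases before the start, and 0 in Izumo1r, and was present in 57.1% of all promoters. GGAAA, the core of NFAT sites, had 1 match in Izumo1r, also 197 bases before the start, and 0 in Gpr83, against 61.3% of all promoters. TGTTTAC, a forkhead site, and TTCNNNGAA, a STAT5 site, had 0 matches in either gene, and were present in 3.55% and 8.47% of all promoters. TATAAA, the TATA box core, began at the last base before the Gpr83 start, had 0 matches in Izumo1r and was present in 14.2% of all promoters. ATAAAAG, a run chosen after the sequences were seen and able to overlap TATAAA, lies 28 bases before the Izumo1r RefSeq start, within the counted first exon and not in the printed stretch, and at the first base of the Gpr83 RefSeq transcript, and was present in 5.71% of all promoters. A match is a run of letters, and nothing about binding was measured.

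Library totals were 16425538 to 27595939 counts in Blimp1-flox and 22788722 to 26279365 in WT. Levels are CPM, counts relative to the TMM-scaled library total, and RPKM where genes are compared with each other, since RPKM also divides by exon length. Prdm1, the targeted gene, held 13.4, 7.53, 9.60 and 16.6 CPM in Blimp1-flox libraries 1 to 4, against 39.1, 31.8, 65.1 and 71.0 CPM in WT libraries 1 to 4. Every library lay on the side of its label, and Prdm1 fell by 2.14 ± 0.31 (SE) on the log2 scale (edgeR quasi-likelihood adjusted p = 0.0203). The call was lost without Blimp1-flox 1 (edgeR adjusted p = 0.103) and when every gene with a count was tested (0.0502). The sources used here do not name the floxed exons of Prdm1. The markers of CD4 T and TFR cells (Cd3e, Cd3d, Cd3g, Cd4, Foxp3, Cxcr5, Pdcd1, Il2ra, Ctla4 and Bcl6) summed to 6722.5 to 8016 CPM in Blimp1-flox and 6649 to 8147 CPM in WT, and 0 of the 10 were at 0.

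Gpr83 was the member with the larger proportional difference. It held 34.2, 50.0, 53.8 and 44.0 CPM in Blimp1-flox libraries 1 to 4, from 562, 1202, 1496 and 1033 counts. In WT libraries 1 to 4 it held 108.6, 86.2, 92.8 and 86.9 CPM, from 2691, 1994, 2114 and 2330 counts. All Blimp1-flox libraries lay below all WT libraries, with the lowest WT library 1.60-fold above the highest Blimp1-flox library, and Blimp1-flox 1 and WT 1 stood farthest from each other. The means were 45.5 ± 8.55 CPM in Blimp1-flox and 93.6 ± 10.4 CPM in WT (SD, n = 4 each). The log2 fold change was -1.04 ± 0.14 (SE), which leaves 48.7% of the WT level. In bulk RNA, fewer cells with the transcript and less transcript per cell cannot be told apart.

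Izumo1r was a far more abundant transcript with a smaller proportional difference. It held 1072, 967 and 831 CPM in Blimp1-flox libraries 1 to 3 and 950.1 CPM in Blimp1-flox 4, from 17621, 23266, 23102 and 22303 counts. In WT libraries it held 1260.5, 1113, 1238 and 1357 CPM, from 31228, 25755, 28192 and 36373 counts. Again the groups did not overlap, but the gap was narrow: WT 2, the lowest WT library, stood 1.04-fold above Blimp1-flox 1, the highest Blimp1-flox library. The means were 955 ± 98.7 CPM in Blimp1-flox and 1242 ± 100.5 CPM in WT (SD, n = 4 each), a log2 fold change of -0.38 ± 0.10 (SE) that leaves 76.9% of the WT level. In CPM the mean difference was -287 for Izumo1r and -48.1 for Gpr83. Of all 12363 tested genes, 4.72% had every Blimp1-flox library below every WT library, and 3.75% had every Blimp1-flox library above every WT library. By edgeR, 0.243% were called lower and 0.259% higher at an adjusted p under 0.05. These shares are given as background only, since the members were taken with these counts in view.

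**Figure D1:**
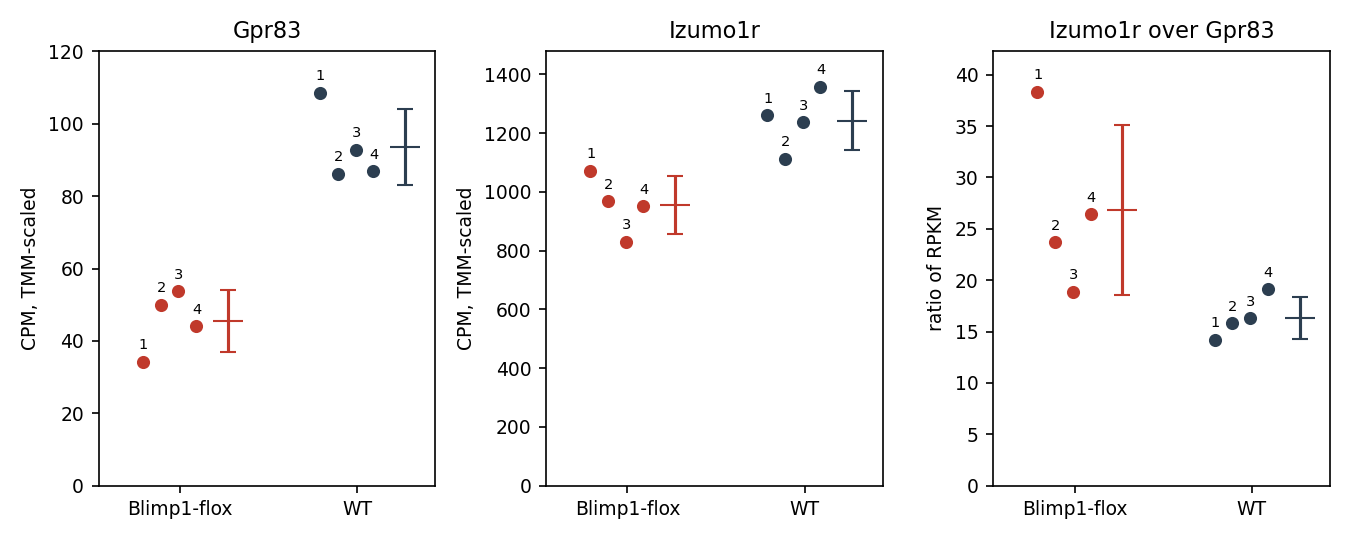
TMM-scaled CPM of Gpr83 and Izumo1r, and the ratio of their RPKM, in each Blimp1-flox and WT library (points, numbered by replicate; bars, mean and SD of 4 libraries). Gpr83 lies between 34.2 and 53.8 CPM in Blimp1-flox and from 86.2 CPM upward in WT, whereas the Izumo1r groups nearly touch.

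The balance between the neighbours differed between the genotypes. Per length, Izumo1r exceeded Gpr83 38.4-, 23.7-, 18.9- and 26.4-fold in Blimp1-flox libraries 1 to 4, against 14.2-, 15.8-, 16.3- and 19.1-fold in WT libraries 1 to 4. The means of this RPKM ratio were 26.8 ± 8.29 in Blimp1-flox and 16.4 ± 2.04 in WT (SD, n = 4 each). The groups overlapped at 1 point, as Blimp1-flox 3 lay just below WT 4. The members also differed in how libraries of 1 genotype ranked. In Blimp1-flox, Gpr83 was lowest in library 1 and then in 4, 2 and 3, and Izumo1r in library 3 and then in 4, 2 and 1. The lowest and the highest library thus changed places, while libraries 4 and 2 kept their order. In WT, library 2 was the lowest for both genes, while library 1 was highest for Gpr83 and library 4 for Izumo1r.

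By RPKM, Izumo1r ranked between 67 and 91 among the genes with a count in each Blimp1-flox library and between 39 and 49 in each WT library. Gpr83 ranked between 3990 and 5202 in Blimp1-flox and between 2184 and 2683 in WT. Among 28 genes, the members and 26 other Treg signature genes, Izumo1r stood second by mean RPKM in either genotype, with 519 ± 53.6 RPKM in Blimp1-flox and 675 ± 54.6 RPKM in WT (SD, n = 4 each). The costimulatory receptor Tnfrsf4 (OX40) stood first, with 689 ± 151 RPKM in Blimp1-flox and 688 ± 36.3 RPKM in WT, so in WT it did not differ from Izumo1r beyond the spread. Tnfrsf18 (GITR), the next below, held 479.9 ± 77.1 RPKM in Blimp1-flox and 538 ± 40.7 RPKM in WT, and lay within the spread of Izumo1r in Blimp1-flox. Gpr83 was 19th in Blimp1-flox, with 20.2 ± 3.80 RPKM, and 16th in WT, with 41.6 ± 4.63 RPKM. In Blimp1-flox its neighbours in that order, Klrg1 at 21.6 ± 9.58 RPKM and Foxp3 at 16.8 ± 2.07 RPKM, lay within the spread. So did its neighbours in WT, Ikzf4 at 47.9 ± 6.42 RPKM and Ecm1 at 37.9 ± 2.30 RPKM.

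**Figure D2:**
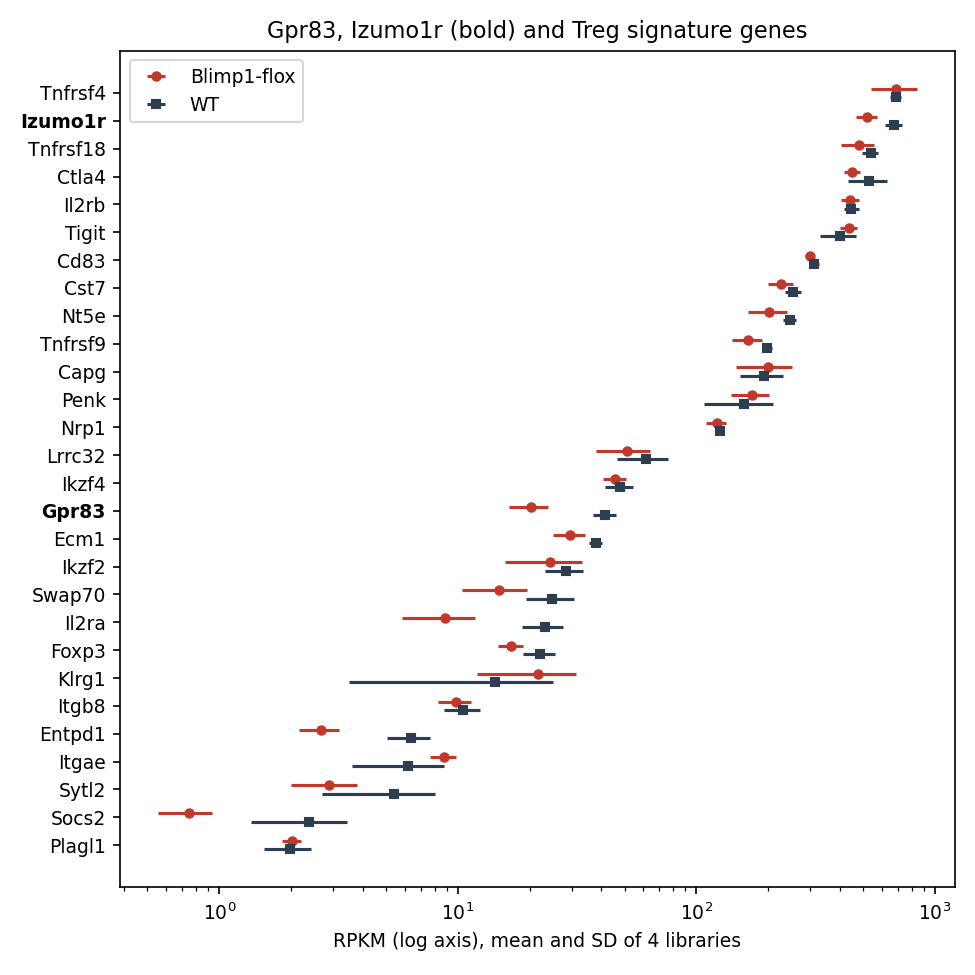
Mean RPKM with SD (n = 4) of Gpr83, Izumo1r and 26 Treg signature genes in Blimp1-flox (circles) and WT (squares), on a log axis. Izumo1r is second in both genotypes, while Gpr83 is 19th of 28 in Blimp1-flox and 16th in WT.

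The other genes of the Treg signature fell in part. Of 26 tested, 3 fell, 0 rose and 23 did not pass, against 0.501% of all tested genes called in either direction (edgeR quasi-likelihood, adjusted p under 0.05). Their median log2 fold change was -0.17, against 0.0012 over all tested genes, and 19 of 26 were negative. This list and the gene lists below were chosen with earlier results of these data known. The counts of genes called in them are thus descriptions, set beside the share over all genes as background only. Il2ra, the high-affinity chain of the IL-2 receptor, held 28.5, 43.8, 55.4 and 28.1 CPM in Blimp1-flox, against 81.3, 118.5, 89.7 and 120.7 CPM in WT (log2 fold change -1.39 ± 0.23 SE; edgeR adjusted p = 0.0311). Entpd1 (CD39), an ectonucleotidase that degrades ATP, held 8.64, 13.1, 13.5 and 11.4 CPM in Blimp1-flox, against 22.8, 24.8, 28.3 and 35.8 CPM in WT (-1.25 ± 0.18 SE; edgeR adjusted p = 0.0085). Socs2, an inhibitor of cytokine signalling, held 1.70, 2.41, 2.48 and 1.45 CPM in Blimp1-flox, against 4.80, 5.44, 4.92 and 10.6 CPM in WT (-1.67 ± 0.32 SE; edgeR adjusted p = 0.0418). The groups did not overlap for any of these 3 genes, which were named because they were called. Of the 26 genes, 4 had every Blimp1-flox library below every WT library, against 4.72% of all tested genes. The number called was 1 without Blimp1-flox 1, Blimp1-flox 2, Blimp1-flox 4 or WT 2 and 6, all lower, with limma-voom, which called 2.27% of all genes lower. Il2ra lost its call in those 4 fits (adjusted p up to 0.105). Socs2 lost it in them too (up to 0.170) and without WT 3 (0.0545) or WT 4 (0.0548). Entpd1 passed in every fit that left out 1 library (adjusted p up to 0.0417).

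Foxp3, the lineage factor of Treg cells, was at -0.40 ± 0.13 (SE) on the log2 scale, close in size to Izumo1r, and did not pass (edgeR adjusted p = 0.176). It passed with limma-voom (-0.43, adjusted p = 0.0321). Reads of Foxp3 may be mixed with those of Ppp1r3fos and Ccdc22, whose exons overlap it. Ikzf2 (Helios), a transcription factor of the Ikaros family, stood at -0.21 ± 0.22 (log2, SE; edgeR adjusted p = 0.658), and at -0.50 without Blimp1-flox 1. Nt5e (CD73), the partner of folate receptor 4 as an anergy marker, held 724 ± 137.0 CPM in Blimp1-flox and 884 ± 57.6 CPM in WT (SD, n = 4 each), a log2 fold change of -0.29 ± 0.12 (SE) that did not pass (edgeR adjusted p = 0.282). Of 16 T cell anergy genes tested with Nt5e among them, 0 were called by edgeR, DESeq2 or limma-voom, and 4 had an unadjusted p under 0.05, against 16.2% of all tested genes. Their median log2 fold change was -0.06, with 13 negative and 3 positive. The values farthest from 0 were those of the nuclear receptor gene Nr4a1 (-0.43 ± 0.17 SE; edgeR adjusted p = 0.240) and the stress-response gene Ndrg1 (0.42 ± 0.24 SE; edgeR adjusted p = 0.408).

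Lists of resting and of effector Treg genes were also counted. Of 15 resting Treg and naive T genes, 0 were called by edgeR, 4 had an unadjusted p under 0.05 (against 16.2% of all tested genes), and the median log2 fold change was -0.03. DESeq2 and limma-voom each called 2 of them, both lower, against 2.19% and 2.27% of all genes called lower. Their values farthest from 0 were those of 2 low transcripts, Ly6c1 (-1.31 ± 0.84 SE; edgeR adjusted p = 0.464; -3.30 without Blimp1-flox 3 and -3.42 with limma-voom) and Igfbp4 (0.83 ± 0.37 SE; edgeR adjusted p = 0.290). Of 21 effector Treg genes 1 fell, against 0.243% of all genes called lower by edgeR. It was Il10, which encodes an anti-inflammatory cytokine (-2.82 ± 0.31 SE, edgeR adjusted p = 0.00502), and the list's median was -0.06. The effector count was 3 without WT 1 and 2 without Blimp1-flox 2, fits that called 127 and 45 genes in all. Of 21 TFH and follicular genes 0 were called by edgeR, 6 had an unadjusted p under 0.05 (against 16.2% of all tested genes), and DESeq2 and limma-voom each called 1, higher, against 1.62% and 1.72% of all genes. The median log2 fold change was 0.22, and all 21 values were above 0. The largest were those of Ascl2, a follicular transcription factor gene (0.76 ± 0.41 SE; edgeR adjusted p = 0.403), and the cytokine gene Il21 (0.57 ± 0.19 SE; edgeR adjusted p = 0.184). Every Blimp1-flox library lay below every WT library for 4 of 21 effector and 2 of 15 resting genes, and above for 0. For TFH genes it lay above for 4 of 21 and below for 0. Over all tested genes these shares were 4.72% below and 3.75% above. An unadjusted edgeR p under 0.05 was seen for 5 effector genes.

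On the ligand and signalling side of Gpr83, 1 gene of 18 tested rose, 1 fell and 16 did not pass, against 0.259% of all genes called higher and 0.243% lower. The median log2 fold change was -0.13. Pcsk1, a prohormone convertase that cuts proSAAS among other precursors, held 7.18, 4.86, 6.29 and 7.46 CPM in Blimp1-flox, against 1.09, 0.735, 1.10 and 0.336 CPM in WT. The groups lay well apart, and Pcsk1 rose 7.91-fold (log2 fold change 2.98 ± 0.36 SE; edgeR adjusted p = 0.00254), also in each fit that left out 1 library (adjusted p up to 0.0140). Pcsk1n, the gene of the precursor proSAAS itself, had 2 counts in Blimp1-flox and 0 in WT, and its exons overlap those of Eras. Plcb2, a phospholipase C of the kind that Gq-coupled receptors activate, held 45.0, 65.7, 69.9 and 57.5 CPM in Blimp1-flox, against 88.8, 110.9, 93.6 and 131.8 CPM in WT. It fell by 0.83 ± 0.15 (SE) on the log2 scale (edgeR adjusted p = 0.0360), a call lost without WT 2, WT 3, Blimp1-flox 1, Blimp1-flox 2 or Blimp1-flox 4 (adjusted p up to 0.150). The count of called genes was 1 without WT 2, WT 3, Blimp1-flox 1 or Blimp1-flox 4.

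The other folate receptor genes were barely detected. Folr1, the folate receptor of epithelia, had 0 counts over the 8 libraries, and Folr2, that of macrophages, 13 counts in Blimp1-flox and 37 in WT. Slc19a1, the reduced folate carrier, held 63.7, 49.6, 66.6 and 64.3 CPM in Blimp1-flox, against 49.2, 52.1, 41.9 and 37.6 CPM in WT. The groups overlapped, and its log2 fold change of 0.43 ± 0.13 (SE) did not pass (edgeR adjusted p = 0.158), but did with DESeq2 (adjusted p = 0.0499) and limma-voom (adjusted p = 0.0384). Of 20 folate transport and one-carbon genes tested 0 were called by edgeR and 4 had an unadjusted p under 0.05, against 16.2% of all tested genes. Their median log2 fold change was 0.13, with 16 positive and 4 negative. Aldh1l1, a low transcript for an enzyme of folate oxidation, had the value farthest from 0 (-0.88 ± 0.46 SE; edgeR adjusted p = 0.363). Of 5 tested genes of sperm-egg fusion 0 were called by edgeR, 1 had an unadjusted p under 0.05 (against 16.2% of all tested genes), and DESeq2 and limma-voom each called 1, against 3.81% and 4.0% of all genes in either direction. Cd9, a tetraspanin that the egg also needs for fusion, stood at 0.57 ± 0.17 (log2, SE; edgeR adjusted p = 0.163; DESeq2 adjusted p = 0.0289), and Cd81, a related tetraspanin, of 0.24 ± 0.13 (SE; edgeR adjusted p = 0.398). Exons of Cd81 overlap another gene.

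The chromosome around the pair was examined next. Within 1 Mb of the interval that holds both genes, 24 other genes had a row and 16 were tested, of which 0 were called by edgeR and 2 had an unadjusted p under 0.05, against 16.2% of all tested genes. Their median log2 fold change was 0.02, with 8 negative and 8 positive. Mre11a, a nuclease gene of DNA repair and the nearest row on the Gpr83 side at 25.8 kb, held 26.3, 36.7, 32.6 and 32.9 CPM in Blimp1-flox, against 30.2, 30.8, 33.8 and 36.4 CPM in WT, and the groups overlapped. Its log2 fold change was -0.03 ± 0.125 (SE; edgeR adjusted p = 0.934). Panx1, a channel gene through which cells release ATP and the nearest row on the Izumo1r side at 101.8 kb, held 121.2, 104.95, 105.7 and 116.2 CPM in Blimp1-flox, against 119.5, 81.1, 125.5 and 102.15 CPM in WT. Its groups overlapped as well (log2 fold change 0.06 ± 0.13 SE; edgeR adjusted p = 0.840). The sign turned for Mre11a without Blimp1-flox 1 (0.0538) or WT 4 (0.03) and for Panx1 without WT 2 (-0.0467).

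Next beyond Mre11a, Ankrd49 stood at -0.17 ± 0.15 (log2, SE; edgeR adjusted p = 0.603) and 1700012B09Rik had 0 counts. Beyond Panx1, Hephl1 and Vstm5 had 12 and 19 counts over the 8 libraries and were not tested. The genes with an unadjusted p under 0.05, both singled out after their values were seen, were Cep295, a centrosomal protein gene (-0.73 ± 0.19 SE; edgeR adjusted p = 0.111), and Taf1d, a subunit gene of the RNA polymerase I machinery (-0.41 ± 0.12 SE; edgeR adjusted p = 0.158). They lie 413.0 and 402.3 kb from the interval, and their exons overlap each other, so their counts are uncertain. DESeq2 and limma-voom each called 1 of the 16 tested neighbours, against 3.81% and 4.0% of all genes in either direction. Every Blimp1-flox library lay below every WT library for 1 of the 16, Cep295, and above for 0, against 4.72% and 3.75% of all tested genes.

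**Figure D3:**
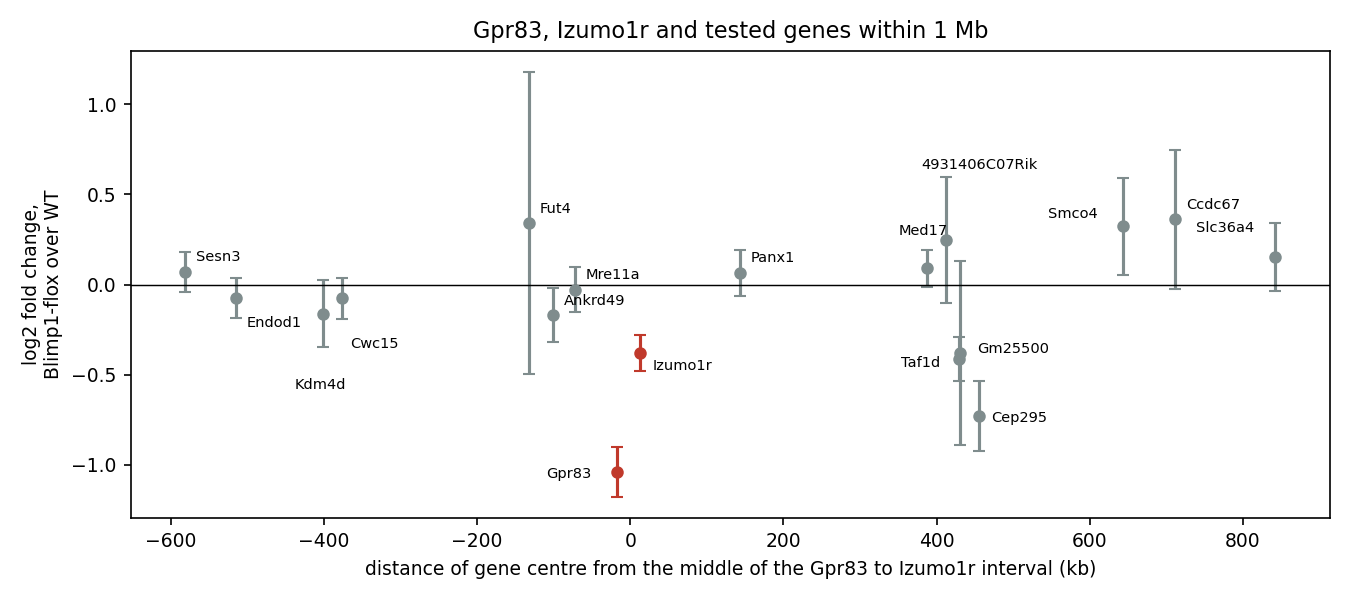
Log2 fold change (Blimp1-flox over WT, bars SE) of Gpr83, Izumo1r (red) and the 16 other tested genes within 1 Mb (grey), by distance of the gene centre from the middle of the interval in kb. Gpr83 at -1.04 and Izumo1r at -0.38 lie below their nearest tested neighbours, Mre11a at -0.03 and Panx1 at 0.06. Farther off, Cep295 at -0.73 and Taf1d at -0.41 lie below Izumo1r, and Gm25500 is level with it at -0.38.

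The genes with the most similar pattern over the 8 libraries were different for the members. Likeness was the root mean square difference between 2 genes in log2 CPM centred on the mean of each gene, over 9146 genes with a mean of at least 5 CPM, and it uses the same values that chose the members, so it is a description only. The closest to Gpr83 was Eef2k, the kinase of elongation factor 2, at 0.11, with 6.07 ± 1.05 CPM in Blimp1-flox and 11.6 ± 1.62 CPM in WT (SD, n = 4 each). Rftn2 (0.21), Mpp7 (0.22), the prostaglandin E2 receptor gene Ptger4 (0.23) and the interferon-induced gene Ifit1 (0.24) followed. The closest to Izumo1r was Tcn2, the carrier of vitamin B12, at 0.06, with 48.2 ± 2.38 CPM in Blimp1-flox and 65.1 ± 3.70 CPM in WT (SD, n = 4 each). Trim30a (0.07), Atp5sl (0.08), Fam169b (0.08) and Rhof (0.08) followed. The members themselves were 0.44 apart.

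**Figure D4:**
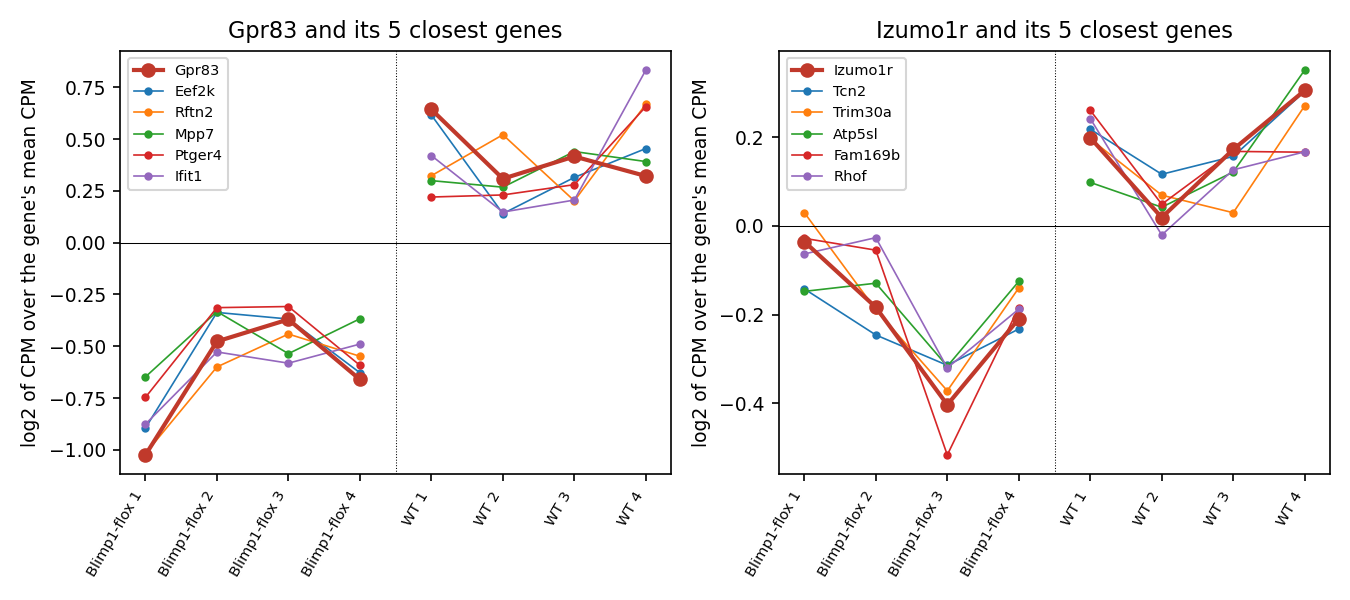
Log2 of CPM over the mean CPM of each gene in 8 libraries, for Gpr83 and Izumo1r (thick red) and the 5 genes closest to each. Gpr83 is lowest in Blimp1-flox 1 and Izumo1r in Blimp1-flox 3; lines join libraries of a genotype and carry no order.

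Markers of other cell types were read in the same libraries. The 12 B cell markers, with 0 at 0 in all libraries, summed to 206 to 275 CPM in Blimp1-flox and 236 to 813 CPM in WT (exact two-sided permutation p = 0.143), and 11 of them were highest in WT 4. By the median marker the list stood lower, at -3.26 on the log2 scale, and at -1.84 without WT 4, with 0 of 12 called by edgeR. Their most abundant genes were Cd22 and Cd79b, at means of 207 and 36.6 CPM. Without WT 4 the log2 fold change was -1.07 for Gpr83 and -0.34 for Izumo1r. The 6 CD8 and NK markers, of which Klre1 and Klra8 were at 0, summed to 47.9 to 50.4 CPM in Blimp1-flox and 26.1 to 43.4 CPM in WT (exact two-sided permutation p = 0.0286, the smallest the design allows). Only 2 of them had enough counts to be tested by edgeR, and 0 were called. Most of the sum came from Klrb1c and Cd8b1, at means of 27.4 and 14.3 CPM. The 18 pancreas markers, Amy2a5 at 0, summed to 53.1 to 114 CPM in Blimp1-flox and 34.2 to 76.5 CPM in WT (exact permutation p = 0.0571). Of the 17 tested, 0 had a negative log2 fold change, and their median was 0.75. The 9 erythroid and platelet markers, with the 4 haemoglobin genes at 0, summed to 7.19 to 15.1 CPM in Blimp1-flox and 14.3 to 30.6 CPM in WT (exact permutation p = 0.0857). Only 3 were tested, 2 of them negative, with a median of -1.03. The 11 myeloid markers summed to 5.11 to 84.5 CPM in Blimp1-flox and 16.3 to 34.8 CPM in WT, and the 6 plasma cell markers to 222 to 336 CPM in Blimp1-flox and 232 to 318 CPM in WT (exact permutation p = 0.343 and 0.600). Of 8 tested myeloid markers 1 was negative, and their median log2 fold change was 0.48. Of 5 tested plasma cell markers 2 were negative, and their median log2 fold change was 0.41. Only 1 of them was called by edgeR, and it is named for that reason. It was Sdc1, a surface proteoglycan gene, which rose (log2 fold change 1.87 ± 0.34 SE, edgeR adjusted p = 0.0334). That call was lost without Blimp1-flox 1, 2 or 4, WT 2 or WT 3 (edgeR adjusted p up to 0.134). Adjusted over these and the T cell list, 7 in all, the smallest p was 0.200 (exact permutation). The part of these cells in the levels of Gpr83 and Izumo1r was not tested.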

How the data were processed

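Poly(A) RNA-seq libraries of 4 Blimp1-flox and 4 WT TFR samples were read from 1 deposited table. Per the submitters' processing notes, the authors used STAR 2.5.2b, featureCounts (Subread 1.5.1) and the mm10 build. It holds whole-number counts as deposited, not normalized, beside the exon length of each gene in bases. The sources used here name neither the annotation nor the strand setting.

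Genes were kept with filterByExpr (12363 of 24421) and scaled by TMM (factors 0.976 to 1.02). Genotype was tested in edgeR 4.0.16 (R 4.3.3) by quasi-likelihood, adjusted by Benjamini-Hochberg over all tested genes, called at an adjusted p under 0.05. Each SE is the log2 fold change over the square root of its F. CPM and RPKM were computed here from the deposited counts. The fitting code was also run on simulated counts, as a check of the code alone, and the outcome is not given here. Alternatives were DESeq2 1.42.0, limma-voom (limma 3.58.1) with quality weights, scaling by RLE or by totals alone, other filters, a replicate block, libraries left out, other windows and another threshold. Motifs were searched in RefSeq promoters.

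The members and gene lists were chosen with earlier results of these data known. Named genes were 10 set by name, 3 nearest rows on each side, up to 4 called genes of each list or, with fewer than 2 called, the 2 values farthest from 0, and the 5 closest genes of each member with X and Y genes and gene models left out. A result that this rule names is not reported here. Libraries of a group differed by more than sampling noise. Marker medians without WT 4 were added after seeing the data.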

Additional observations from a re-analysis of the deposited data

Results flagged for a closer look

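Each of 68 groups of 4 values was checked for a library far from the other 3, and 3 were found, where chance alone gives about 5% of groups. Ikzf2 stood at 352 CPM in Blimp1-flox 1, against 185 to 193 CPM in the other Blimp1-flox libraries. Socs2 stood at 10.6 CPM in WT 4, against 4.80 to 5.44 CPM in the other WT libraries. Ly6c1 stood at 1.01 CPM in Blimp1-flox 3, against 0 to 0.125 CPM in the other Blimp1-flox libraries. Neither Gpr83 nor Izumo1r, nor their ratio, had such a library.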

How the results depend on the processing

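The log2 fold changes of Gpr83 and Izumo1r stayed negative and within the spread between replicates under all 16 alternatives run for them, from -1.16 to -0.93 for Gpr83 and from -0.44 to -0.27 for Izumo1r. Leaving out 1 library at a time gave -1.13 to -0.93 and -0.44 to -0.32. Same-numbered libraries correlated from -0.11 to 0.15 in their deviations from the group means, and differently numbered ones from -0.17 to 0.11. These ranges show no clear pairing by replicate number, but they cannot exclude a paired design. With a replicate block the values were -1.05 and -0.38, 52 genes were called in all and 2 of the Treg signature, Socs2 losing its call. All genes called numbered 453 with DESeq2, 494 with limma-voom, 157 without WT 4 and Blimp1-flox 3 together and 182 at an adjusted p under 0.10, against 62 in the main test. Leaving out 1 library gave 20 to 127: 20 without Blimp1-flox 1, 23 without Blimp1-flox 4, 27 without WT 2, 94 without Blimp1-flox 3 and 127 without WT 1. DESeq2 called 1 neighbour, 1 folate gene, 2 resting Treg, 3 effector Treg and 1 TFH gene, and limma-voom 1, 1, 2, 5 and 1 of these and 6 Treg signature genes. Of all genes tested, 3.81% were called by DESeq2 and 4.0% by limma-voom, against 0.501% by edgeR. Without a filter 3 effector Treg genes were called, of 93 genes in all. Without WT 4 and Blimp1-flox 3 together 2 were called, with 1 resting Treg gene, of 157 in all. Leaving out 1 library gave 1 to 4 Treg signature, 1 to 3 ligand and coupling, 1 to 3 effector and 0 to 1 resting Treg genes, the last being 1 without Blimp1-flox 3, and 0 neighbours, folate, anergy and TFH genes. Windows of 0.5 and 2 Mb also held 0 called genes. Mre11a was 0.0018 with limma-voom and 0.018 without both libraries, and -0.10 to 0.0538 with 1 library left out, as Panx1 was -0.0467 to 0.15. The cause of these shifts was not tested. Folr2 and Pcsk1n had too few counts to be tested.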

Other observations

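The order of the Blimp1-flox libraries by Gpr83 level, lowest in library 1 and then 4, 2 and 3, was chosen for a closer look after the values were seen. Foxp3, Entpd1, Lrrc32, Swap70, Cd83 and Sytl2, 6 of 25 Treg signature genes with a mean of at least 5 CPM, had that order, as did 7.73% of 9788 genes tested at that level. Foxp3, for example, held 55.7 CPM in Blimp1-flox 1, 65.0 CPM in library 4, 67.5 CPM in library 2 and 75.5 CPM in library 3. The order of Izumo1r, library 3 and then 4, 2 and 1, was shared by 2 of the 25, the TNF receptor family gene Tnfrsf9 and the cystatin gene Cst7, and by 4.06% of all. Plcb2, of the ligand and coupling list, also had the order of Gpr83. These are descriptions of 4 libraries, and library 1 was also the one with the fewest counts, 16425538.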
